A study of Mus musculus with 2 samples.

Results

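The hyaluronan matrix genes are Has1, Has2, Ptx3, Tnfaip6, Vcan and Cd44, 6 of the 24984 gene symbols in the deposited tables. They were chosen by symbol, with earlier results of these data known. Their unique molecular identifiers (UMIs, one per captured RNA molecule) were read in single cells of dystrophin-deficient (mdx) hind limb muscle, a model of human muscular dystrophy. Ctrl cells were from Pax7CreERT2/R26YFP; Yy1+/+; mdx mice and dKO cells from Pax7CreERT2/R26YFP; Yy1f/f; mdx mice, so both groups carried the mdx mutation, the Cre driver and the YFP reporter, and by the study's methods both received tamoxifen (TMX) about a month before the muscle was taken. The label of the Ctrl sample says no treatment, which differs from those methods. The Cre is driven from Pax7 and acts in muscle stem cells (MuSCs), so Yy1, which encodes the transcription factor YY1, was not targeted in the cells that carried most of the members' UMIs. The cells of several mice were pooled into 1 library per group. There was therefore no replicate check of any difference below, no p-value is given, and every interval is a 95% interval that covers counting error only.

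Hyaluronan is a long unbranched sugar polymer that synthases at the plasma membrane extrude directly into the matrix. TSG-6, the product of Tnfaip6, transfers heavy chains from inter-alpha-inhibitor onto it, pentraxin-3 (Ptx3) joins heavy chains to one another, and versican (Vcan) is a large proteoglycan that binds the polymer through its globular head. CD44 is the main cell surface receptor for hyaluronan, and in muscle the matrix is made largely by fibro-adipogenic progenitors (FAPs), the interstitial mesenchymal cells that expand in injury and fibrosis.

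Both synthases are protein-coding genes annotated by GENCODE on the minus strand of GRCm38, Has1 on chromosome 17 from 17843323 to 17855205 and Has2 on chromosome 15 from 56665627 to 56694539. Ptx3 lies on the plus strand of chromosome 3 from 66219910 to 66225805 and Tnfaip6 on the plus strand of chromosome 2 from 52038009 to 52056686. Vcan lies on the minus strand of chromosome 13 from 89655312 to 89742509 and Cd44 on the minus strand of chromosome 2 from 102811141 to 102901665. Vcan and Cd44 each have 9 annotated transcripts, and UMI sums per symbol do not tell these apart.

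Promoter sequence is shown for Has1, Ptx3 and Tnfaip6, the 3 members whose windows held a match to a searched motif. RefSeq promoters (GRCm38.p6) were matched for 5 of the 6 members, and Has2 was the one without an entry. The bases lie before the RefSeq start and, where GENCODE starts earlier, also before that start, and are written 5′ to 3′ on the strand of the gene. The motifs were searched on both strands in the 250 bases before the RefSeq start, and capitals mark the matches that lie whole within the stretch shown. The Has1 stretch is chr17:17855206-17855438 (minus strand), the Ptx3 stretch chr3:66219637-66219886 (plus strand) and the Tnfaip6 stretch chr2:52037863-52038008 (plus strand).
Has1: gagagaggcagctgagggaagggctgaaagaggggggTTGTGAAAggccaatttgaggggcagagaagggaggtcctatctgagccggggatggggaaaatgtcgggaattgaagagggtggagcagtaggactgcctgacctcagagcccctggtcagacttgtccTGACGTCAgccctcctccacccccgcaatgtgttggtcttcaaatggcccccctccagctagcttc
Ptx3: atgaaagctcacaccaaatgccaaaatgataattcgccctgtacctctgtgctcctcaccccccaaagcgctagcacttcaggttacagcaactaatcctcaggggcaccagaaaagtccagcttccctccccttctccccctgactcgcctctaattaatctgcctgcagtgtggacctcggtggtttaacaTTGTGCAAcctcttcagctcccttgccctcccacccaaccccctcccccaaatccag
Tnfaip6: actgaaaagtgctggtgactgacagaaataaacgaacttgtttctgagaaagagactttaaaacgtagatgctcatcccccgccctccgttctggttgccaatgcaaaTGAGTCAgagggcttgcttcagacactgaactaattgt
The Has1 promoter held the cyclic AMP response element TGACGTCA from 83 to 76 bases before its start, a word found in 1.55% of the 32851 RefSeq promoter windows of the same length. The Tnfaip6 promoter held one match to the AP-1 word TGANTCA from 142 to 136 bases before its start, a word found in 6.75% of windows. All 3 held one match to the C/EBP word TTNNGNAA, found in 36.8% of windows, and that of Tnfaip6, from 108 to 101 bases before the start, runs past the end of the stretch shown, whose last 4 letters belong to it and are left in lower case. The NF-kB consensus, present in 7.25% of windows, had no match in these windows. The Vcan and Cd44 windows had no match to any of the 4 motifs. These are letter matches and not binding sites, and the motifs do not overlap one another here.

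The tables held 4527 barcodes and 45556596 UMIs for Ctrl and 3483 barcodes and 33815155 UMIs for dKO, of which 4335 and 3329 barcodes had at least 500 genes. After removal of the top 7.5% of doublet scores, 4010 Ctrl and 3079 dKO cells remained, with median depths of 7880 and 7806 UMIs, and the libraries shared 7 barcodes. Clusters made without the members were named from marker lists and are called X-like. The MuSC-like cluster was led by Mymx and Myog, genes of differentiating muscle cells. The FAP-like class (1125 Ctrl and 1180 dKO cells) carried Pdgfra in 86.9% and 84.7% of cells and Ptprc, the pan-leukocyte marker, in 3.73% and 2.20%. Monocyte/macrophage-like (MO/MP-like) cells numbered 1524 and 1166. In MuSC-like cells, the targeted gene Yy1 had 369 UMIs in 118 Ctrl cells and 3 UMIs in 30 dKO cells, or 159.6 and 4.85 CPM (the gene's UMIs over all UMIs of the class in a library, scaled as CPM). In FAP-like cells Yy1 stood at 123.9 CPM in Ctrl and 132.8 in dKO.

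Has1, Has2, Ptx3 and Tnfaip6 were FAP genes in both libraries. FAP-like cells held 97.4% (95% binomial interval 97.0 to 97.7) of all Has1 UMIs in Ctrl and 98.6% (98.3 to 98.8) in dKO. The share was 92.1% and 98.0% for Has2, 95.2% and 98.7% for Ptx3, and 94.5% and 98.5% for Tnfaip6. Vcan was less exclusive, with 84.3% and 91.4% of its UMIs in FAP-like cells and a MO/MP-like share of 10.5% and 6.45%. Cd44 was spread over the muscle, with 31.4% and 48.0% of its UMIs in FAP-like cells and a MO/MP-like share of 51.3% and 42.02%. These shares also moved with the makeup of the libraries, since FAP-like cells were 28.1% of Ctrl cells and 38.3% of dKO cells.

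**Figure D1:**
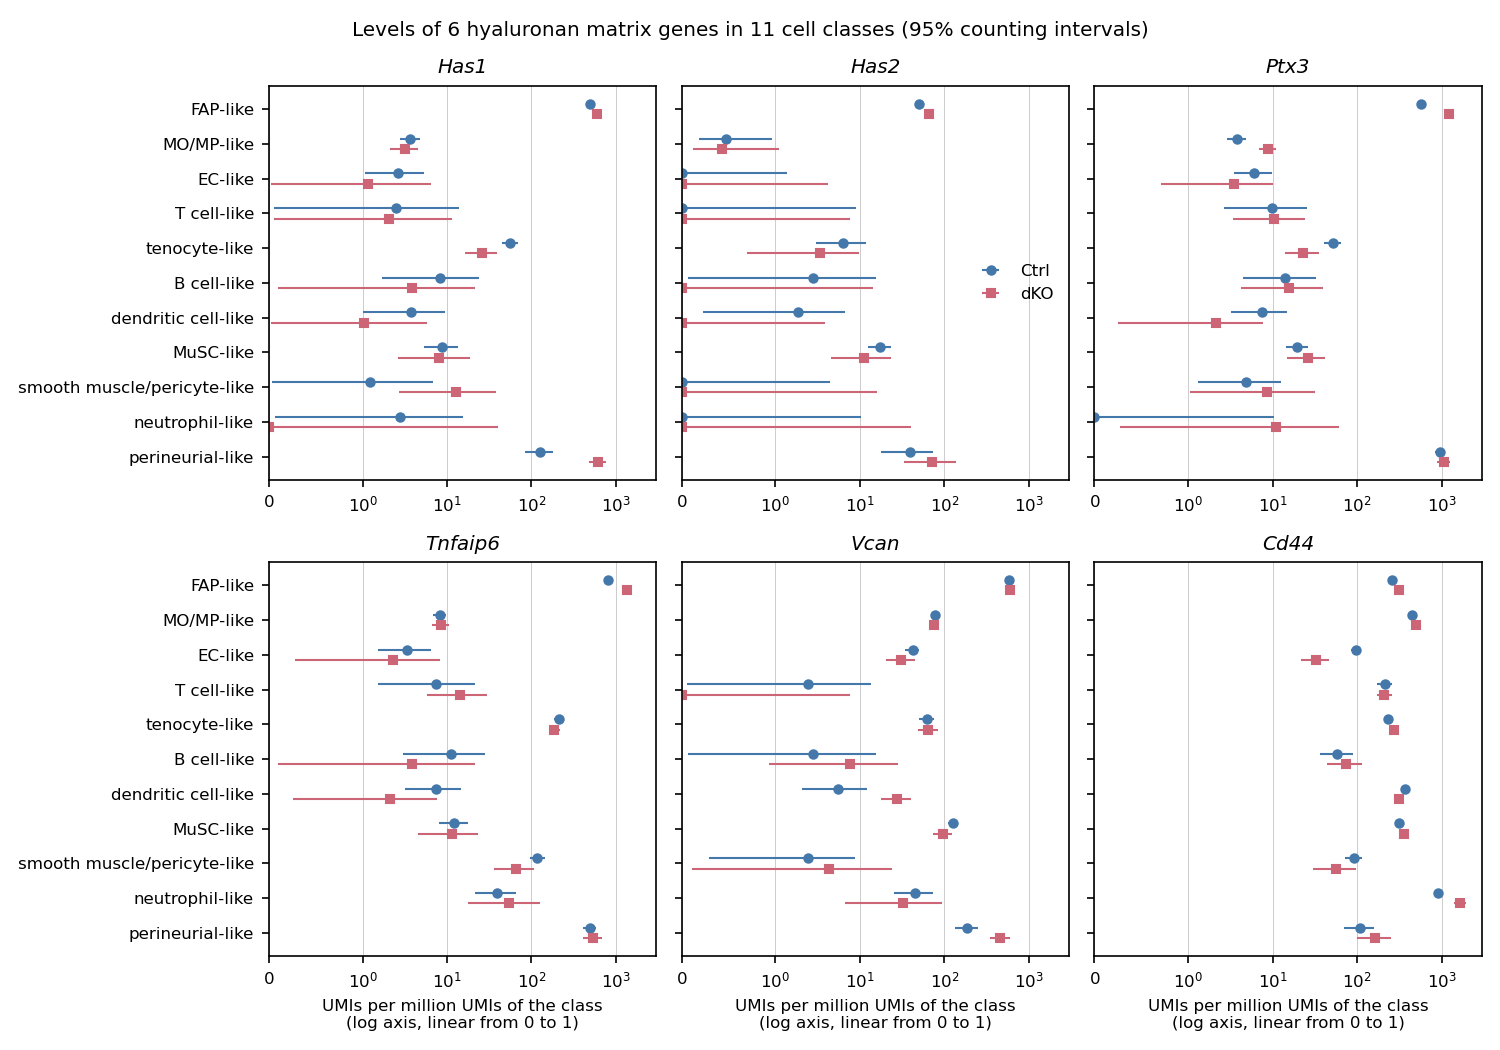
Level of each member, in CPM of the class (log axis, linear below 1), in 11 cell classes for the Ctrl (circles) and dKO (squares) libraries; lines are 95% counting intervals. FAP-like cells stood at 491.8 and 591.6 CPM for Has1 while MO/MP-like cells stood at 3.69 and 3.15, and Cd44 was the member found at over 30 CPM in every class.

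Among the 11 classes with at least 50 cells, Has1 in Ctrl was highest in FAP-like cells at 491.8 CPM (481.0 to 502.8), followed by perineurial-like cells at 125.6 (84.1 to 180.4) and tenocyte-like cells at 55.5 (44.4 to 68.5). From MuSC-like cells (8.65 CPM) downward the intervals of neighbouring classes overlapped. In dKO, perineurial-like cells (611.3 CPM, 481.6 to 765.1) and FAP-like cells (591.6 CPM, 579.9 to 603.4) did not differ beyond counting error. The perineurial-like class was 36 and 20 cells, also carried Schwann cell genes, and often rested on single cells: 1 cell held 62.1% of its Ctrl Has1 UMIs, 84.1% of its Ctrl Tnfaip6 UMIs and 77.3% of its dKO Ptx3 UMIs.

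Has2 was highest in FAP-like cells in Ctrl (50.03 CPM, 46.6 to 53.6), with perineurial-like cells overlapping at 39.0 (17.8 to 74.0) and MuSC-like cells at 17.3 (12.4 to 23.6). In dKO, perineurial-like cells (72.4 CPM, 33.1 to 137.4) and FAP-like cells (66.7, 62.8 to 70.7) overlapped, and MuSC-like cells stood next at 11.3. No Has2 UMI was found among the 2663055 UMIs of Ctrl EC-like cells, which allows a level of up to 1.39 CPM, nor in dKO EC-like, T cell-like, smooth muscle/pericyte-like or neutrophil-like cells of either library.

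Ptx3 in Ctrl was 952.7 CPM (831.0 to 1087) in perineurial-like and 562.5 (550.9 to 574.2) in FAP-like cells, and in dKO the intervals of these 2 classes overlapped. Tnfaip6 was spread over several mesenchymal classes. In Ctrl it stood at 803.3 CPM in FAP-like, 489.3 in perineurial-like, 209.2 in tenocyte-like and 117.5 in smooth muscle/pericyte-like cells, with no overlap between these neighbours.

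Vcan in Ctrl was 582.1 CPM in FAP-like cells, 186.2 in perineurial-like cells, 125.9 in MuSC-like cells and then 77.5 for the MO/MP-like class, and the perineurial-like and MuSC-like intervals overlapped. Cd44, unlike the other members, was higher in neutrophil-like and MO/MP-like cells than in FAP-like cells in both libraries. It was highest in neutrophil-like cells (909.4 CPM in Ctrl, 813.1 to 1014), then in MO/MP-like cells (450.02, 439.3 to 460.9), then in dendritic cell-like cells (363.7) and MuSC-like cells (314.4), whose intervals overlapped, with FAP-like cells at 257.2 and EC-like cells at 96.5. Ctrl FAP-like, tenocyte-like and T cell-like cells did not differ in Cd44 beyond counting error between neighbours in this order.

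The low levels of the 4 FAP genes in immune cells were set beside those of FAP markers, which immune cells should lack. In MO/MP-like cells, Has1, Has2, Ptx3 and Tnfaip6 stood at 0.750%, 0.938%, 0.668% and 1.03% of their FAP-like level in Ctrl and at 0.533%, 0.653%, 0.708% and 0.626% in dKO. The 6 FAP markers Pdgfra, Dcn, Col1a1, Col3a1, Lum and Gsn stood at 0.518% to 3.63% in Ctrl and 0.491% to 2.46% in dKO, and the upper end was Gsn alone. The other 5 markers ended at 0.844% and 0.708% (Lum), and Tnfaip6 in Ctrl had a value above these 5, while Ptx3 in dKO stood level with the highest of them. Has2 in Ctrl rested on 7 UMIs there (0.469 CPM, 0.189 to 0.967), too few to place it among the markers. Ptx3 in MO/MP-like cells, at 3.75 CPM (56 UMIs) in Ctrl and 8.70 (80 UMIs) in dKO, was thus close to the level of the FAP markers, and whether its UMIs there came from MO/MP-like cells was not tested. In the Ear2+ Retnla+ cluster, 1 cell held 16 of the 22 Ctrl Ptx3 UMIs. Vcan was at 13.3% and 12.8% of its FAP-like level and Cd44 at 175.0% and 158.1%, outside the range of the FAP markers.

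All 6 members had a higher CPM in dKO FAP-like cells, by very different amounts. Ptx3 stood at 562.5 CPM in Ctrl (8983 UMIs) and 1229 CPM in dKO (20425 UMIs), a ratio of 2.18 (exact conditional interval 2.13 to 2.24). Tnfaip6 stood at 803.3 CPM (12830 UMIs) and 1355 CPM (22528 UMIs), a ratio of 1.69 (1.65 to 1.72). The RNA of both cross-linking proteins of the matrix was thus past 1.5-fold, the size used here to call a difference.

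The synthases differed less. Has1 stood at 491.8 CPM in Ctrl and 591.6 in dKO (ratio 1.203, 1.17 to 1.24), and Has2 at 50.03 and 66.7 CPM (ratio 1.33, 1.22 to 1.46). The receptor Cd44 stood at 257.2 and 316.2 CPM (ratio 1.23, 1.18 to 1.28). Vcan stood at 582.1 and 598.7 CPM (ratio 1.03, 1.00 to 1.06), a difference not detectable at this depth.

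FAP-like cells had 10449 genes at or over 100 UMIs, of which 2.73% were past 1.5-fold higher in dKO and 2.79% lower, and 2 of the 6 members were higher and 0 lower. The median log2 ratio of the members was 0.36, and that of all genes tested was -0.05. Because the members were chosen with earlier results of these data known, they are not an independent draw from these genes. Ptx3 ranked 64 and Tnfaip6 ranked 166 of the 10449 genes when ordered from the largest dKO to Ctrl ratio. Has2 ranked 556, Cd44 968, Has1 1117 and Vcan 3461. No single cell set these values: the cell richest in Ptx3 held 2.22% of the FAP-like Ptx3 UMIs in Ctrl and 1.03% in dKO. When the levels of the FAP subsets were weighted as in Ctrl, the log2 ratio of Ptx3 was 0.99, against 1.13 without weighting, and that of Tnfaip6 was 0.62 against 0.75.

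**Figure D2:**
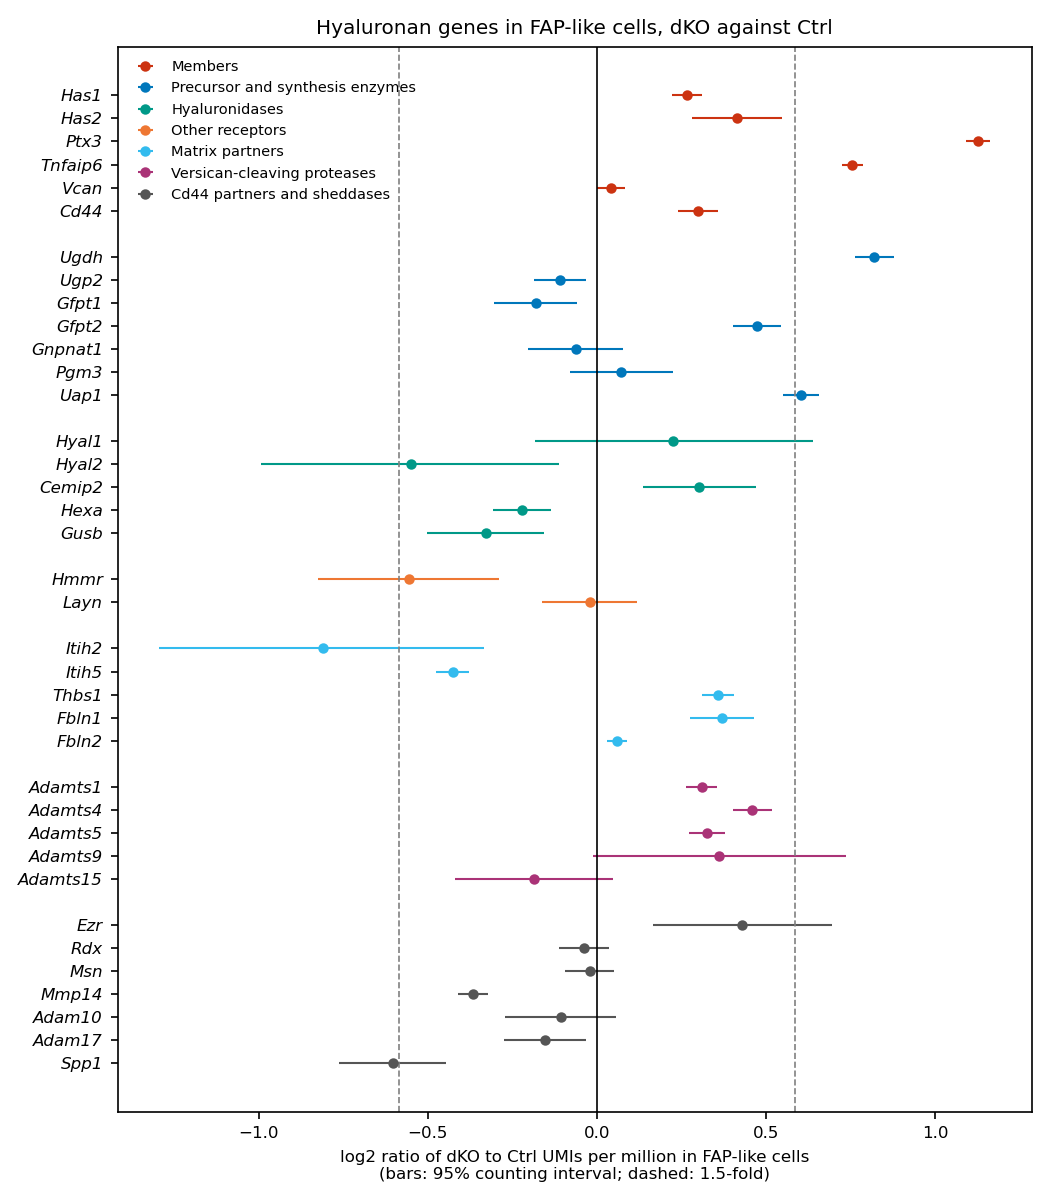
Log2 ratio of dKO to Ctrl CPM in FAP-like cells for the 6 members and for most of the other hyaluronan genes with at least 100 UMIs; bars are 95% counting intervals and dashed lines mark 1.5-fold. Ptx3 (1.13) and Tnfaip6 (0.75) stand apart from the other members, and Ugdh (0.82) and Uap1 (0.60) are the 2 enzymes past the right dashed line.

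The UMIs of the members were unevenly spread over FAP-like cells, most of all those of Ptx3 and Has2. Cells were not thinned here, and the same share over all genes was not computed. In Ctrl, the 113 FAP-like cells with the most Ptx3 held 70.03% of its UMIs and the median cell had 0. In dKO the richest 118 cells held 57.8% and the median cell had 2 Ptx3 UMIs. Ranked for each gene in turn, as many cells held 61.1% and 52.6% of Tnfaip6, 51.1% and 45.7% of Has1, and 68.0% and 64.5% of Has2. Cd44 was at 47.3% and 47.6%, and Vcan was the most evenly spread member, at 37.6% and 40.8%.

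A larger share of FAP-like cells carried Has1, Ptx3, Tnfaip6 and Cd44 in dKO over all subsets pooled. With every cell thinned to 2000 UMIs, and 64 Ctrl and 54 dKO FAP-like cells too shallow for that, 28.9% (26.2 to 31.8) of Ctrl and 44.4% (41.5 to 47.4) of dKO FAP-like cells had a Ptx3 UMI. Tnfaip6 was found in 43.9% and 55.3%, Has1 in 38.2% and 46.9%, and Cd44 in 29.2% and 37.7%. These 4 pairs of intervals did not overlap. Of the 4683 genes found in at least 5% of thinned FAP-like cells, 3.67% had intervals apart and higher in dKO and 4.33% apart and lower. Has2 was found in 9.05% and 9.86% of cells and Vcan in 58.4% and 56.7%, and both of these pairs overlapped. Without thinning, Ptx3 was found in 45.7% and 61.0%, Tnfaip6 in 70.04% and 75.8%, Has1 in 60.2% and 67.9%, Has2 in 29.4% and 32.5%, Vcan in 86.6% and 84.8% and Cd44 in 67.6% and 69.9% of FAP-like cells, whose median depths were 12134 and 12118 UMIs. The unthinned intervals of Cd44 overlapped (64.7 to 70.3 and 67.2 to 72.5). Within the 6 subsets, the thinned intervals of Has1, Ptx3, Tnfaip6 and Cd44 overlapped except for Ptx3 in G0s2+ Cdkn1c+ cells, at 14.6% (11.7 to 18.0) and 26.9% (22.8 to 31.3). In EC-like cells, which should lack the FAP genes, thinned shares were 1.26% and 0% for Ptx3 (0 of 143 dKO cells, upper bound 2.55%), 0.756% and 0.699% for Tnfaip6 and 0.504% and 0.699% for Has1, at median depths of 4698 and 3802 UMIs.

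**Figure D3:**
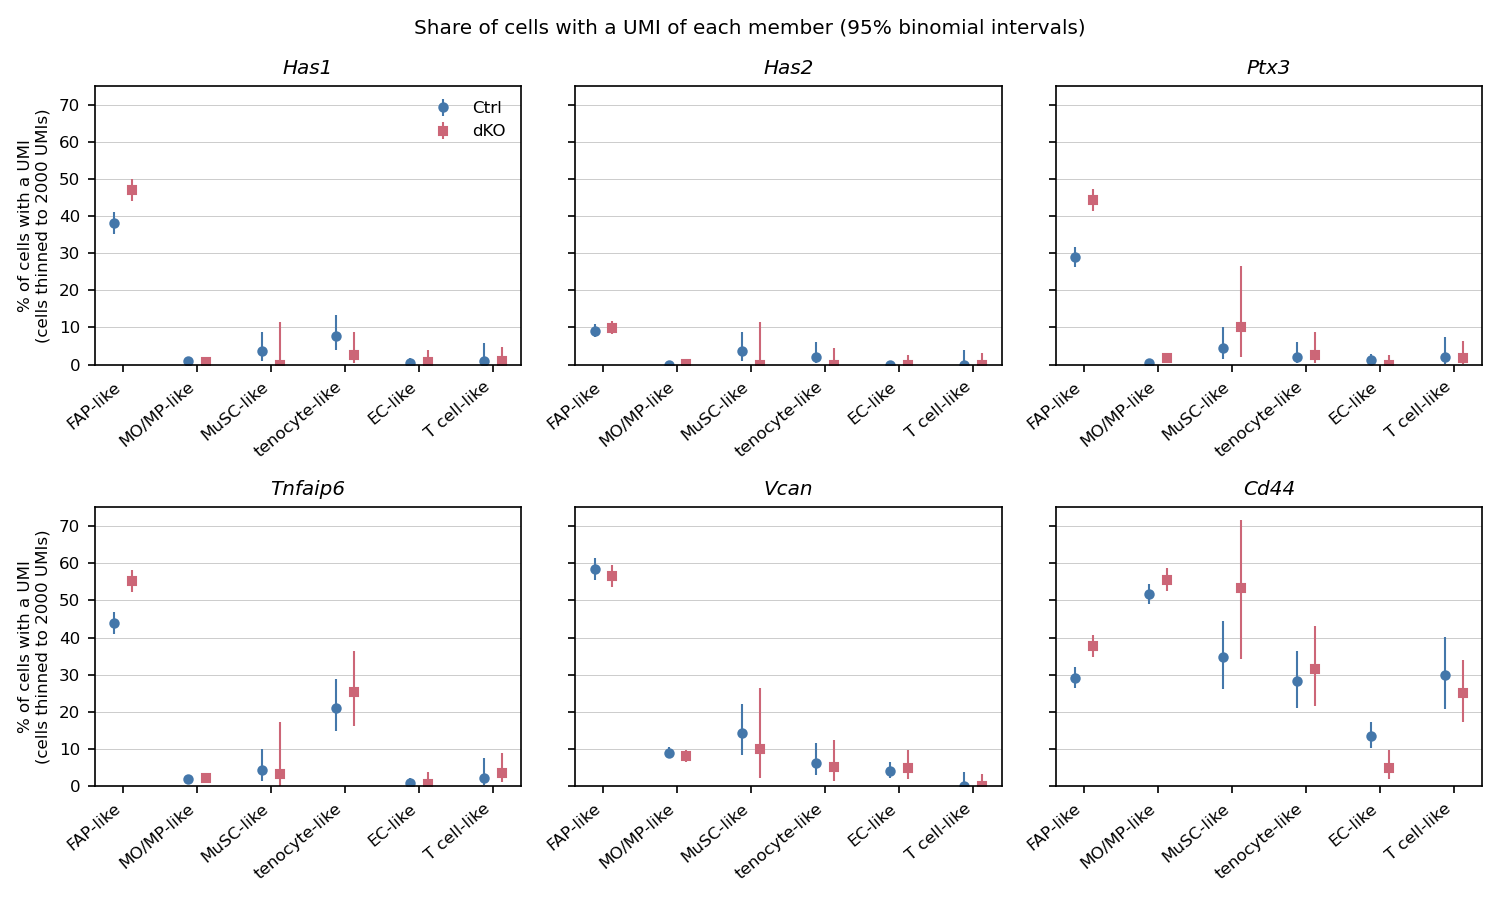
Percent of cells with at least 1 UMI of each member after thinning to 2000 UMIs, in 6 classes for Ctrl (circles) and dKO (squares); lines are 95% binomial intervals. In FAP-like cells Ptx3 stands at 28.9% in Ctrl and 44.4% in dKO, while Vcan stands at 58.4% and 56.7%.

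FAP-like cells fell into 8 clusters, of which 6 are compared. They are called here by their leading genes: G0s2+ Cdkn1c+ (520 Ctrl and 439 dKO cells), Cxcl5+ activated (219 and 262), Clu+ Comp+ (128 and 193), Pi16+ Dpp4+ (137 and 159), cycling (36 and 37) and Hhip+ (35 and 35), the last with a median of 3604 UMIs. The study used Ptx3 to mark one of its FAP states on these libraries, so its place among subsets is not independent of that choice. Of the other clusters, one had 50 and 15 cells with a median of 1926 UMIs and one had 40 cells, all from dKO, with a median of 1849 UMIs.

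Ptx3 was lowest in the G0s2+ Cdkn1c+ subset among the 4 large ones, at 263.3 CPM in Ctrl and 596.3 in dKO. It stood at 727.4 and 1440 CPM in Cxcl5+ activated cells, at 1054 and 1985 in Pi16+ Dpp4+ cells and at 1143 and 2326 in Clu+ Comp+ cells. The dKO level was 1.88 to 2.26 times the Ctrl level in these 4 subsets. In cycling cells it was 558.2 and 693.0 CPM, and in Hhip+ cells 166.4 and 184.2 CPM (28 and 37 UMIs), where the ratio of 1.11 had an interval from 0.66 to 1.88. A single cell held 30.02% of the Ctrl Ptx3 UMIs of the cycling subset and another 70.3% of the dKO Ptx3 UMIs of the Hhip+ subset. Without the richest cell of each library the ratio was 1.39 (1.23 to 1.56) in cycling cells and 0.42 (0.18 to 0.90; 22 and 11 UMIs) in Hhip+ cells.

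Tnfaip6 had a higher CPM in dKO in each of the 6 subsets, with ratios from 1.39 to 2.81, but in the Hhip+ subset that direction rested on 1 cell. It stood at 391.4 and 545.1 CPM in G0s2+ Cdkn1c+ cells, 1366 and 1919 in Cxcl5+ activated cells, 1271 and 2002 in Pi16+ Dpp4+ cells and 863.9 and 1841 in Clu+ Comp+ cells. The largest ratio was in cycling cells, at 376.3 and 1058 CPM. In the Hhip+ subset (600.4 and 871.1 CPM) 1 dKO cell held 58.9% of the UMIs. Without the richest cell of each library, an alternative chosen after seeing the data, it stood at 499.8 and 368.7 CPM there (80 and 72 UMIs; ratio 0.74, 0.53 to 1.03), and the share of cells with a UMI was 45.7% in both libraries. In the other 5 subsets the ratio without these cells ran from 1.39 to 2.92.

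The synthases were both higher in dKO in Cxcl5+ activated cells, which held the most UMIs of each, with Has1 at 613.5 and 681.2 CPM (ratio 1.11, 1.06 to 1.16) and Has2 at 75.2 and 96.00 CPM (ratio 1.28, 1.12 to 1.46). Elsewhere Has1 differed in direction among subsets. It stood at 348.1 CPM in Ctrl and 476.6 in dKO in G0s2+ Cdkn1c+ cells (ratio 1.37, 1.30 to 1.45). In Pi16+ Dpp4+ cells it stood at 776.7 and 698.6 CPM (ratio 0.90, 0.83 to 0.98; 0.93, 0.85 to 1.01, without the richest cell of each library), and in Clu+ Comp+ cells at 731.7 and 731.3. Has2 stood at 26.4 and 21.9 CPM in G0s2+ Cdkn1c+ cells (ratio 0.83, 0.66 to 1.05), a difference within counting error, and at 84.5 and 132.1 in Pi16+ Dpp4+ cells (ratio 1.56, 1.24 to 1.98) and 41.4 and 69.4 in Clu+ Comp+ cells (ratio 1.68, 1.21 to 2.35). The difference between the synthases was not tested.

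Vcan was highest in Pi16+ Dpp4+ cells, at 815.9 CPM in Ctrl and 967.4 in dKO (ratio 1.19, 1.10 to 1.28). That was the 1 subset of the 6 with an interval above 1. It stood lower in dKO in 2 subsets, at 474.0 and 440.6 CPM in G0s2+ Cdkn1c+ cells (ratio 0.93, 0.88 to 0.98) and at 705.5 and 636.8 in cycling cells (ratio 0.90, 0.82 to 0.99), and at 671.8 and 679.4 in Cxcl5+ activated cells. Cd44 was highest in Cxcl5+ activated and cycling cells, at 426.7 and 464.7 CPM and at 362.9 and 474.3 CPM. In Pi16+ Dpp4+ cells it was 131.4 and 206.1 CPM (ratio 1.57, 1.30 to 1.89), and in G0s2+ Cdkn1c+ cells 136.3 and 128.9 CPM, with overlapping intervals.

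**Figure D4:**
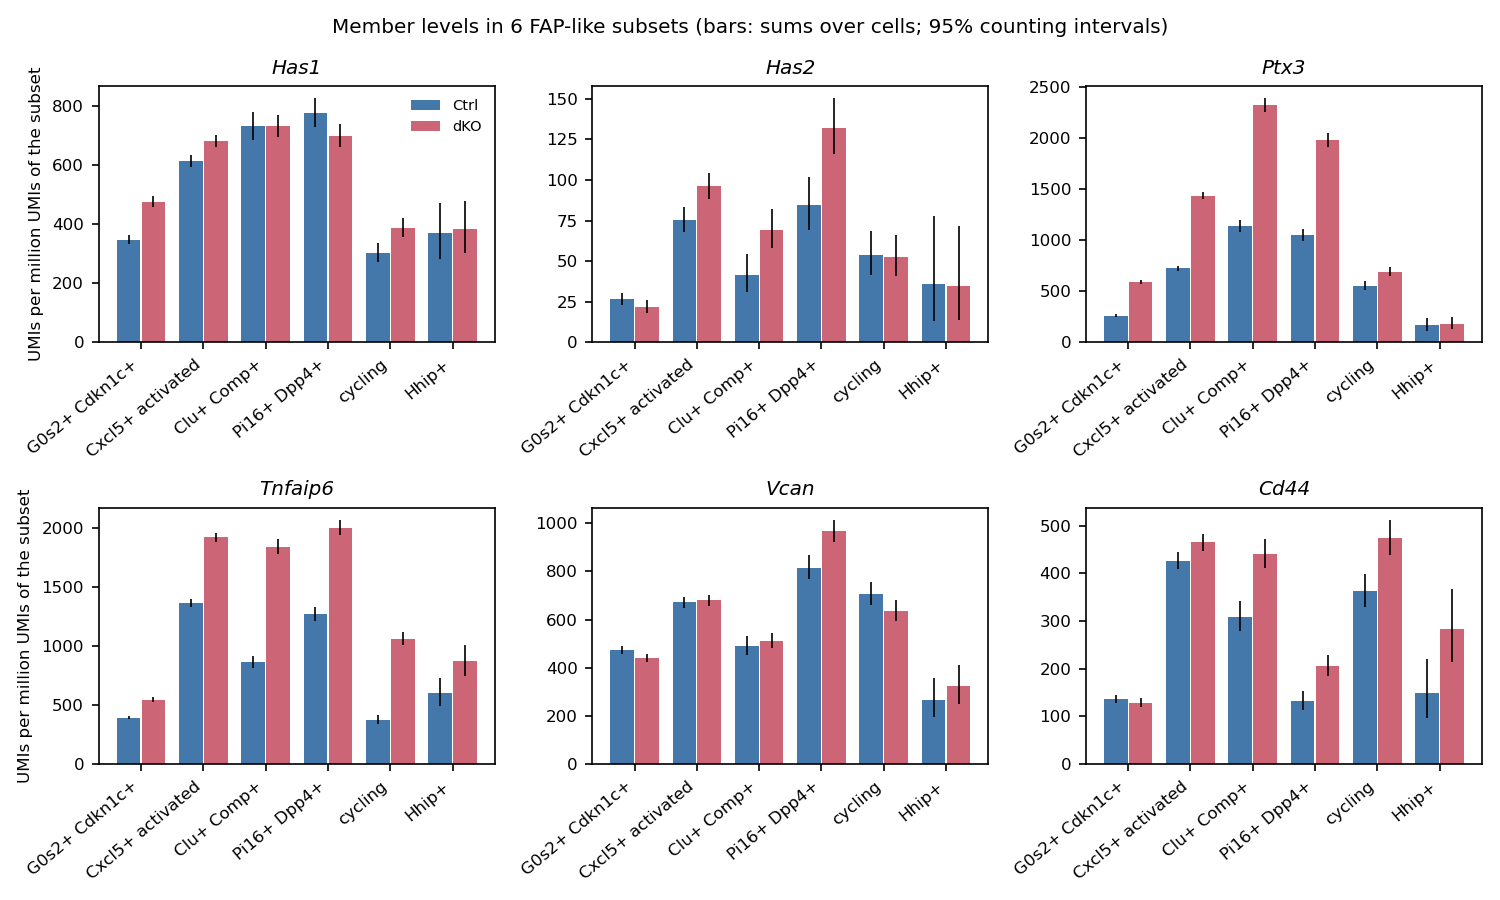
Level of each member in 6 FAP-like subsets, in CPM of the subset, for Ctrl and dKO; bars are sums over cells and lines are 95% counting intervals. Tnfaip6 is higher in dKO in each subset, where the Hhip+ difference rests on 1 dKO cell and turns without the richest cells. Ptx3 in Hhip+ cells turns too (22 and 11 UMIs left), and it reaches 1143 and 2326 CPM in Clu+ Comp+ cells.

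For some pairs of members, cells with the one had the other more often than cells without it. At 2000 UMIs per cell, 72.0% of Ctrl cells with a Ptx3 UMI also had a Tnfaip6 UMI, against 32.5% of Ctrl cells without one. In dKO these shares were 76% and 38.8%. Of Ctrl cells with Has1, 65.9% had Tnfaip6 and 45.9% had Ptx3, against 30.3% and 18.4% of cells without Has1. The intervals of cells with and without the first member were apart in both libraries for 8 of the 15 pairs, and these 8 were all between Has1, Has2, Ptx3, Tnfaip6 and Cd44 apart from the pair of Ptx3 and Vcan. In a separate thinning draw 7 of the 15 were apart, and over all 10962903 pairs of the 4683 genes 0.157% were apart with the share higher in cells that had the first gene. Vcan in cells with Has1 was found in 61.2% of Ctrl and 57.2% of dKO cells, against 56.7% and 56.2% without Has1. Without thinning, all 15 pairs were apart in both libraries, and deeper cells then have more UMIs of every gene. Thinning does not remove differences between subsets, whose part in these shares was not tested.

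Counting only Has1, Has2, Ptx3 and Tnfaip6, 36.6% (33.7 to 39.5) of Ctrl FAP-like cells and 24.7% (22.2 to 27.3) of dKO cells had none of the 4. Cells with 3 of the 4 were 14.9% (12.8 to 17.2) in Ctrl and 22.6% (20.1 to 25.1) in dKO. Cells with all 4 were 1.89% and 3.29%, with overlapping intervals.

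**Figure D5:**
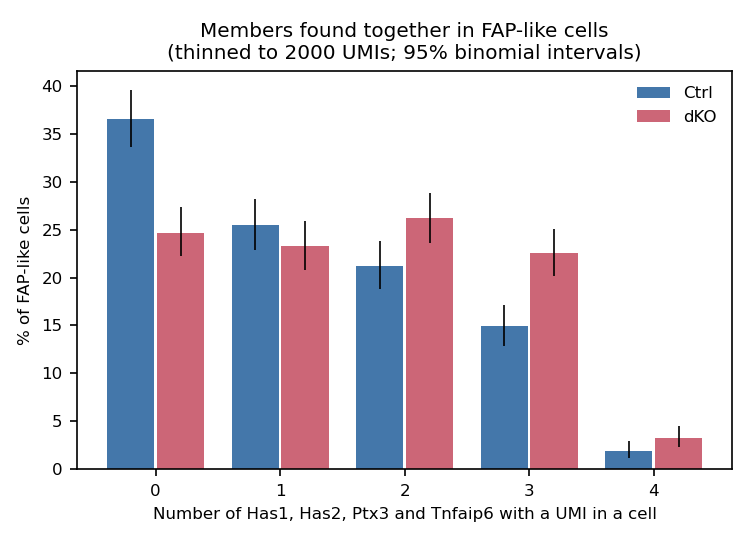
Percent of FAP-like cells, thinned to 2000 UMIs, that had a UMI of 0, 1, 2, 3 or 4 of Has1, Has2, Ptx3 and Tnfaip6; lines are 95% binomial intervals. Cells with none were 36.6% in Ctrl and 24.7% in dKO, and cells with 3 were 14.9% and 22.6%.

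Across the sums of 10 classes in 2 libraries (20 points that share depth and library), Has1 resembled Ptx3 (Pearson r = 0.89 of log2 CPM plus 1) and Has2 (0.87) more than Vcan (0.61) or Cd44 (-0.01). Outside the members, the genes most like Has1 were Cxcl14 (0.94), a chemokine, Clec3b (0.94), which encodes tetranectin, and E330013P04Rik (0.93). Those most like Has2 were Myorg, Gxylt2 and Mme (0.93, 0.92 and 0.92), those most like Ptx3 were Wnt2, Col6a6 and Duoxa1 (0.89, 0.89 and 0.88), and those most like Tnfaip6 were Gsn, Adamts2 and C7 (0.92, 0.91 and 0.90). Vcan was closest to Nupr1, Glis3 and Steap3 (0.83, 0.80 and 0.80), and Cd44 to Cers6, Basp1 and Antxr2 (0.92, 0.88 and 0.87). These values describe which classes carry a gene.

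The enzymes that supply both sugars of hyaluronan differed unequally in FAP-like cells. Ugdh, which makes UDP-glucuronic acid, stood at 234.7 CPM in Ctrl and 414.3 in dKO (ratio 1.76, 1.70 to 1.84). Uap1, which makes UDP-N-acetylglucosamine, stood at 295.7 and 449.4 CPM (ratio 1.52, 1.47 to 1.58). Gfpt2, an entry enzyme of the hexosamine pathway, stood at 168.8 and 234.2 CPM (ratio 1.39, 1.32 to 1.46), while its paralogue Gfpt1 stood at 69.9 and 61.7 CPM (ratio 0.88). Ugp2, Gnpnat1 and Pgm3 had ratios of 0.93, 0.96 and 1.05. The third synthase, Has3, had 3 UMIs in Ctrl and 4 in dKO.

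Over 6 lists of other hyaluronan genes, 51 of 53 symbols had a row (the others, Tmem2 and Bikunin, are older names of listed genes). In FAP-like cells 32 had at least 100 UMIs, and 2 of these (Ugdh and Uap1) were past 1.5-fold higher and 2 lower, with a median log2 ratio of -0.03. The lower pair were Itih2, an inter-alpha-inhibitor heavy chain gene (6.32 and 3.61 CPM), and Spp1, the CD44 ligand osteopontin (50.5 and 33.2 CPM). MO/MP-like cells carried Spp1 at 2739 and 1552 CPM, and the summed immune markers in FAP-like cells at 100.9 and 60.2 CPM, and the part of macrophage RNA in its FAP-like values was not tested. Itih5, a related heavy chain gene, stood at 490.2 and 364.7 CPM (ratio 0.74, 0.72 to 0.77). The versican-cleaving proteases Adamts1, Adamts4 and Adamts5 had ratios of 1.24, 1.37 and 1.25 in that order. The hyaluronidase list, which also holds lysosomal enzymes that degrade the chain, summed to 316.3 and 280.7 CPM (ratio 0.89, 0.85 to 0.92), with a median log2 ratio of -0.25 over the 6 genes with at least 100 UMIs and 0 past 1.5-fold. Within it Cemip2, a cell surface hyaluronidase, had a ratio of 1.23 (1.10 to 1.39), Hyal2 0.68 (0.50 to 0.92) and Gusb, a lysosomal glucuronidase, 0.80.

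In MO/MP-like cells 4.38% of 9110 genes were past 1.5-fold higher and 4.62% lower. Of the 4 members with at least 100 UMIs there, 1 was higher and 0 lower, and that member was Ptx3, at the low levels given above. Cd44 stood at 450.02 CPM in Ctrl and 500.05 in dKO (ratio 1.11, 1.07 to 1.15) and Vcan at 77.5 and 76.3 (ratio 0.98, 0.90 to 1.08). Within the class, Vcan belonged to the monocyte-like cluster, at 571.1 CPM in Ctrl and 465.9 in dKO (ratio 0.82, 0.74 to 0.90), and the other 7 clusters stood between 4.98 and 39.2 CPM. Of these 7, 2 were also named monocyte-like, with Vcan at 39.2 and 25.3 CPM in the one and at 8.80 and 13.4 CPM in the cycling one. The study used Vcan as a monocyte marker on these libraries. Cd44 was also highest in that cluster, at 957.4 and 943.4 CPM (ratio 0.99, 0.91 to 1.06), while the resident macrophage-like cluster (240.3 and 272.0) and the largest C1q-high cluster (240.7 and 288.9) were lowest. Of the other hyaluronan genes, 25 had at least 100 UMIs. The receptor gene Lyve1 stood at 18.5 and 45.0 CPM (ratio 2.43, 2.08 to 2.84) and the lysosomal hyaluronidase Hyal1 at 29.1 and 45.0 (ratio 1.55). The scavenger receptor gene Stab1 stood at 164.3 and 87.0 CPM (ratio 0.53, 0.49 to 0.57), Hmmr, a hyaluronan-binding mitotic protein gene, at 19.5 and 7.61 (ratio 0.39), and Spp1 had a ratio of 0.57. Lyve1 is a leading gene of the resident macrophage-like cluster, which was 11.5% of Ctrl and 14.8% of dKO MO/MP-like cells and held 73.6% and 90.1% of the Lyve1 UMIs, at 252.7 and 409.0 CPM within it (ratio 1.62, 1.36 to 1.93). Spp1 is a leading gene of the Spp1+ Gpnmb+ cluster, which had 223 Ctrl and 122 dKO cells and held 42.01% and 43.3% of the Spp1 UMIs, at 6010 and 5361 CPM within it (ratio 0.89, 0.87 to 0.92). The Spp1 ratio was 0.63 in the largest C1q-high cluster, 0.44 in the other C1q-high cluster and 0.24 in the Ear2+ Retnla+ cluster. It was 0.64 in the resident and the cycling clusters. In the monocyte-like clusters outside the cycling one it was 1.01 and 0.95, with intervals that included 1. Hmmr is also a marker of cycling cells, and the cycling MO/MP-like cluster had 103 Ctrl and 36 dKO cells and a Hmmr ratio of 0.73 (0.55 to 0.95). Hyal1 differed in direction among clusters, with ratios of 2.39 (1.78 to 3.22) in the largest C1q-high and 0.29 (0.10 to 0.73) in the Ear2+ Retnla+ cluster. The part of cluster makeup in the class values was not tested.

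Lists that could move with the members were read in FAP-like cells. The 17 immediate early and dissociation genes summed to 27032 CPM in Ctrl and 25450 in dKO (ratio 0.94), with 0 of 17 past 1.5-fold, and their ratio ran from 0.49 in Hhip+ to 1.12 in G0s2+ Cdkn1c+ cells among the 6 subsets. The 11 NF-kB target genes summed to 7010 and 9082 CPM (ratio 1.30), with 1 past 1.5-fold, Cxcl2, a neutrophil chemokine (412.1 and 677.0 CPM). Their ratio was 1.82 in Pi16+ Dpp4+ cells and 1.08 in Cxcl5+ activated cells. The 10 immune markers summed to 100.9 and 60.2 CPM in FAP-like cells, with 0 of them at 0 in Ctrl and 1 at 0 in dKO. S100a8 and S100a9, neutrophil granule genes, stood at 13.1 and 1.44 CPM and at 16.1 and 2.11 CPM there. The part of these lists in the members' values was not tested.

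Cd44 in EC-like cells stood at 96.5 CPM in Ctrl (257 UMIs) and 32.1 in dKO (28 UMIs), a ratio of 0.33 (0.22 to 0.49), where 4.6% of 4736 genes were past 1.5-fold higher and 7.35% lower. Its level was lower in dKO in each of the 3 EC-like clusters, at 142.4 and 58.5 CPM in the Car4+ Gpihbp1+ capillary-type cluster, 29.5 and 11.6 in the Selp+ Ackr1+ cluster and 47.2 and 21.7 in the Gja5+ cluster, the last 2 with 4 dKO UMIs each and intervals that included 1. With no doublets removed, the log2 ratio was -0.15 in place of -1.59, so the size of this difference depends on the removal of doublets. Vcan in EC-like cells was found mainly in the Selp+ Ackr1+ cluster, at 121.6 and 72.4 CPM (99 and 25 UMIs).

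In neutrophil-like cells Cd44 stood at 909.4 CPM in Ctrl (324 UMIs in 98 cells) and 1652 in dKO (153 UMIs in 36 cells), a ratio of 1.82 (1.49 to 2.21). In this class 21.3% of 607 genes were past 1.5-fold higher and 7.08% lower. The 10 immune markers summed to 196293 and 111315 CPM there (ratio 0.57), the NF-kB targets to 5097 and 9881 (ratio 1.94) and the immediate early and dissociation genes to 7615 and 10313 (ratio 1.35), and their part in the Cd44 value was not tested. In MuSC-like cells, which carried the deletion, Vcan stood at 125.9 and 96.9 CPM (ratio 0.77, 0.57 to 1.02) and Cd44 at 314.4 and 355.5 (ratio 1.13, 0.97 to 1.32), and neither difference was detectable with 30 dKO cells. Of 3985 genes, 7.45% were past 1.5-fold higher there and 13.4% lower. Without the richest cell of each library, the log2 ratio of Vcan there was -0.81 in place of -0.38, and 1 dKO cell held 33.3% of its 60 UMIs.

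Tenocyte-like cells had a Has1 ratio of 0.47 (0.28 to 0.75; 87 and 23 UMIs) and a Ptx3 ratio of 0.44 (0.26 to 0.73; 80 and 20 UMIs), where 2.93% of 3172 genes were past 1.5-fold higher and 3.5% lower. A single cell held 59 of the 80 Ptx3 UMIs in Ctrl and another 15 of the 20 in dKO, and the direction for Ptx3 turned with no doublets removed (log2 ratio 0.28). Tnfaip6 in this class, at 209.2 and 187.3 CPM, had a ratio of 0.90 (0.74 to 1.08). In smooth muscle/pericyte-like cells Tnfaip6 stood at 117.5 and 64.8 CPM (97 and 15 UMIs; ratio 0.55, 0.30 to 0.95), where 7.48% of 1819 genes were past 1.5-fold higher and 10.7% lower. There 1 cell held 17 of the 97 Tnfaip6 UMIs in Ctrl and 1 cell held 6 of the 15 in dKO. In perineurial-like cells 2 of the 4 members over 100 UMIs, Has1 (ratio 4.87) and Vcan (2.46), were past 1.5-fold higher, beside 21.2% of 495 genes higher and 14.5% lower. With no doublets removed the log2 ratio of Vcan there was 0.05 in place of 1.30, and without the richest cell of each library 0.19. The 10 immune markers summed to 103.9 CPM in Ctrl and 2333 in dKO perineurial-like cells, with 3 and 5 of them at 0. The NF-kB targets summed to 5617 and 17752 CPM there (ratio 3.16, with 7 of the 8 over 100 UMIs past 1.5-fold higher) and the immediate early and dissociation genes to 39065 and 17101 (ratio 0.44, 11 of 17 lower). The part of these lists in the Has1 and Vcan values was not tested. Dendritic cell-like cells had a Vcan level of 5.55 CPM in Ctrl (6 UMIs) and 27.4 in dKO (26 UMIs), and a Cd44 ratio of 0.85 (0.73 to 0.996), beside 5.98% of 2542 genes past 1.5-fold higher and 2.83% lower. Of the 26 Vcan UMIs 1 cell held 10, and 3.51% of Ctrl and 4.85% of dKO cells had a Vcan UMI. In T cell-like cells Cd44 stood at 211.6 and 210.3 CPM (ratio 0.99, 0.74 to 1.34), beside 5.07% of 1204 genes higher and 2.33% lower. No member reached 100 UMIs in B cell-like cells, where 3.66% of 737 genes were higher and 3.26% lower.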

How the data were processed

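Single-cell 10x 3′ libraries of pooled, sorted live hind limb muscle cells, 1 per group, were compared. The authors aligned and counted the reads and deposited raw UMI counts per gene and barcode. The submitters' processing notes name Cell Ranger 7.0.0, Seurat 4.3.0 and build mm10, and the matrix header gives software version 3.0.2. Barcodes with at least 500 genes were kept, and the 7.5% with the highest Scrublet scores were removed (scanpy 1.11.5), since its own threshold called only 4 and 14 cells. No mitochondrial symbol was in the tables. Libraries were integrated in Seurat 5.3.0 (R 4.3.3; 2000 variable genes, 40 dimensions, resolution 0.8) without 57 hyaluronan genes. FAP-like and MO/MP-like cells were clustered again (30 dimensions, resolution 0.4). Clusters were named from marker lists needing at least 3 enriched markers, and cycling clusters were joined to their class. UMIs were summed per class and library and divided by all UMIs of that class. Intervals were exact Poisson for levels, exact conditional binomial for ratios and Clopper-Pearson for shares. A difference was called past 1.5-fold at 100 or more UMIs in both libraries together. With 1 library per group no test was run. The ratio script was tested on simulated Poisson sums, a setting without the gathering of UMIs in single cells seen in these data. Named genes were the 6 members in each class of at least 50 cells, listed hyaluronan genes past 1.5-fold, and the 3 genes most like each member among those with at least 200 UMIs; other listed genes were named after their values were seen. The members and lists were chosen with earlier results of these data known. Gene positions came from GENCODE M21 (GRCm38, the same assembly as mm10). A listed gene that stays in the list counts is not reported here by name.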

Additional observations from a re-analysis of the deposited data

Results flagged for a closer look

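The difference between libraries had opposite signs in FAP-like cells and another class for 5 pairs, each with both counting intervals apart from 0. None of these differences between classes was tested, since each group had 1 library. On the log2 scale, Has1 was at 0.27 in FAP-like and -1.10 in tenocyte-like cells, and Ptx3 at 1.13 and -1.18 in the same classes. The tenocyte-like Ptx3 value rested on 80 and 20 UMIs, of which 1 cell held 59 in Ctrl and 1 cell held 15 in dKO, and it turned to 0.28 with no doublets removed, 1.42 with no integration and 0.25 as the mean of each cell's own CPM. Tnfaip6 was at 0.75 in FAP-like and -0.86 in smooth muscle/pericyte-like cells, where 97 and 15 UMIs were counted and 1 dKO cell held 6 of the 15. Cd44 was at 0.30 in FAP-like cells, -1.59 in EC-like cells and -0.23 in dendritic cell-like cells. The EC-like value was -0.15 with no doublets removed.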

How the results depend on the processing

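In FAP-like cells the dKO to Ctrl log2 ratios of the members over 11 alternatives ran from 0.22 to 0.36 for Has1, 0.26 to 0.47 for Has2, 0.99 to 1.18 for Ptx3, 0.62 to 0.83 for Tnfaip6, -0.01 to 0.10 for Vcan and 0.18 to 0.35 for Cd44. Scaling to the median ratio of genes gave 0.32 for Has1, 1.18 for Ptx3, 0.81 for Tnfaip6 and 0.10 for Vcan. The mean of each cell's own CPM gave 0.36 for Has1, 0.83 for Tnfaip6 and -0.0014 for Vcan, and cells with at least 200 genes gave 0.72 for Tnfaip6. Weighting the FAP subsets as in Ctrl, chosen after seeing the data, gave 0.22, 0.26, 0.99, 0.62, -0.011 and 0.18 for the 6 members in the order above. The share of UMIs held by FAP-like cells in both libraries together, at 98.1%, 95.4%, 97.6%, 97.0%, 87.9% and 39.0%, became 97.6%, 94.1%, 98.0%, 96.3%, 87.0% and 37.6% with no doublets removed, and with clustering on all variable genes 98.3% for Has1, 96.3% for Has2, 98.8% for Ptx3 and 97.5% for Tnfaip6. The dKO minus Ctrl difference in the share of cells was 11.4 points for Tnfaip6 and 8.44 for Cd44 in thinned cells, and 5.72 and 2.36 in unthinned cells. The 8 pairs of members found together became 15 without thinning. FAP-like genes past 1.5-fold numbered 285 higher and 292 lower; at 50 UMIs 467 were lower, and at 1 UMI 1999 were higher and 2419 lower. For MO/MP-like cells, with 399 and 421, 657 were lower at 50 UMIs, and at 1 UMI 2070 were higher and 3055 lower. Of 179 alternative values outside FAP-like cells, 158 stayed within the counting interval, 18 moved outside it and 3 reversed: Ptx3 in tenocyte-like cells was 0.28 with no doublets removed, 1.42 with no integration and 0.25 as the mean of each cell's own CPM. Without the richest cell of each library, chosen after seeing the data for the FAP-like subsets, Tnfaip6 in Hhip+ cells was -0.44 in place of 0.54. The ratio of Ptx3 in Hhip+ cells was then 0.42 (0.18 to 0.90) in place of 1.11 (0.66 to 1.88). Apart from the thresholds on UMIs, the cause of these shifts was not tested. No paired analysis was possible because each group had 1 library and no result came from a test. With 1 pooled library per group, library and genotype cannot be told apart, and the number of mice behind a difference is not seen.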
